A study of Mus musculus with 3 samples.

Results

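The cytosolic ribosomal protein genes were taken by symbol. A member had at least 1 protein-coding transcript model and a symbol of Rpl or Rps followed by a digit, or was Rplp0, Rplp1, Rplp2 or Rpsa, and symbols beginning with Rps6k were left out. This gave 92 of 55536 annotated genes, namely 46 standard proteins of the large subunit, 31 of the small subunit, 8 variant paralogs, 6 genes with a pseudogene symbol and a protein-coding model, and Rps19bp1, which encodes a protein that binds Rps19 and is not itself a ribosomal protein. Their RNA was measured in the chromatin fraction of macrophages grown from bone marrow of C57BL/6J mice. The cells had received 100 ng/ml of Lipid A, the membrane anchor of lipopolysaccharide, for 12 h, then 12 h without it and then the same dose for 60 min. Total RNA was depleted of ribosomal RNA, and 3 libraries, replicates 1, 2 and 3, made up the only group. With no untreated cells and no singly dosed cells, the values are levels and not responses. The labels record neither sex nor age, carry the same donor entry for the 3 libraries and do not say whether separate animals or cultures were used, so the p-values given here measure only the spread between these samples.

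Ribosomal proteins assemble with ribosomal RNA in the nucleolus, and the finished subunits are exported to translate mRNA in the cytoplasm. Their genes are short, are transcribed at high rates in most cells and carry many small introns, several of which contain small nucleolar RNAs (snoRNAs) that guide modification of ribosomal RNA. Most of their mRNAs start with a C and a run of pyrimidines, the terminal oligopyrimidine (TOP) motif, through which mTOR and Larp1 control their translation in response to growth conditions. RNA of the chromatin fraction is enriched in transcripts that are being made or are not yet fully spliced.

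The 92 members took 16358, 53189 and 17170 of the 12602702, 17222239 and 17042691 gene counts of replicates 1, 2 and 3. In CPM, which scales counts to the library's total, a count of 0 allows a level of at most 0.238, 0.174 and 0.176 in replicates 1, 2 and 3. This is the level of 3 counts and covers counting error only. Replicate 2 stood apart in 3 recorded respects. The 11 fibroblast and stromal markers, such as collagen genes, summed to 5, 51488 and 121 counts, and 11 of 11 were highest in replicate 2. The 10 macrophage markers summed to 44380, 51635 and 39739 counts, and neutrophil, lymphocyte and erythroid markers to at most 5 counts in each library, with Elane, Ly6g, Cd3e and Hba-a1 among those at 0. The libraries were made from 1000, 250 and 500 ng of RNA, and mRNAs encoded in mitochondria, which lie outside the nucleus, took 0.0556, 0.0812 and 0.0413% of the counts. In these bulk libraries more RNA per cell and more cells of a type cannot be told apart, and the part of these differences in the results below was not tested.

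All 77 standard ribosomal protein genes had chromatin RNA, most of it in replicate 2. Their median was 18.3, 101 and 19.5 TPM (transcript abundance corrected for length) in replicates 1, 2 and 3. The lowest had 3.43, 33.7 and 2.22 TPM and the highest 74.0, 248 and 107 TPM. In replicates 1 and 3 the levels overlapped almost completely, while 40 genes passed 100 TPM in replicate 2, against 0 in replicate 1 and 1 in replicate 3. Replicate 2 held the highest value for 77 of 77 standard genes, where it held the highest value for 77.1% of 10011 protein-coding genes with a mean of at least 1 TPM. Over all 92 members it did so for 87.

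**Figure D1:**
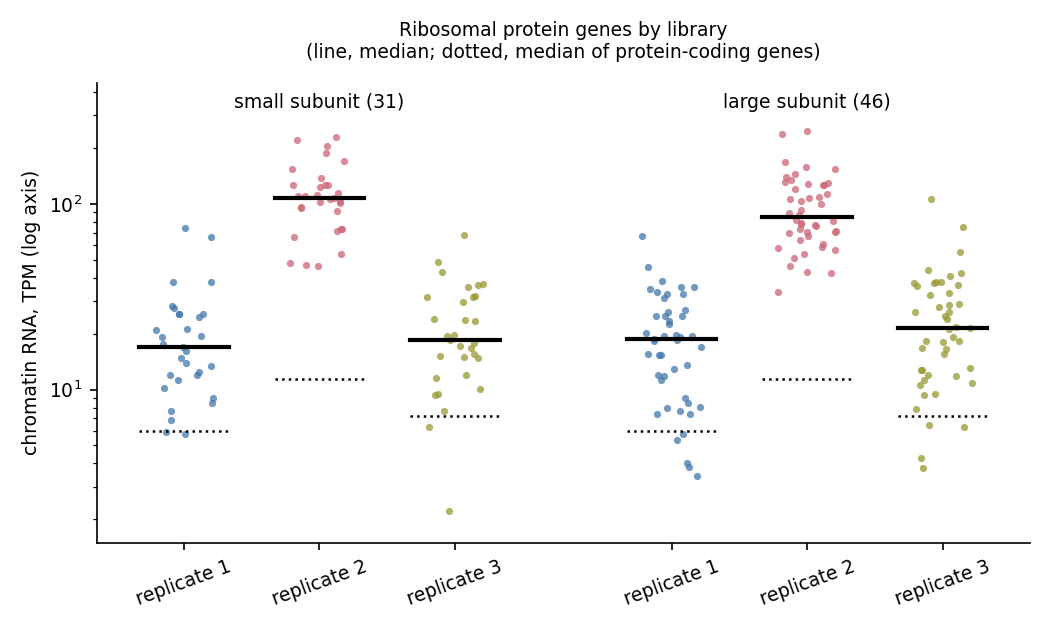
TPM of each standard small-subunit (31) and large-subunit (46) gene in replicates 1, 2 and 3 on a log axis, one point per gene, with the median as a line and the median of protein-coding genes of at least 1 TPM (5.95, 11.4 and 7.21 TPM) as a dotted line. The medians of small-subunit genes were 16.9, 107 and 18.4 TPM and those of large-subunit genes 18.6, 84.8 and 21.4 TPM, highest in replicate 2.

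The height of replicate 2 exceeded a general shift of that library. The ratio of replicate 2 to the mean of replicates 1 and 3, each plus 0.1 TPM, had a median of 4.65 over the 77 standard genes, with a range of 1.57 to 20.6, beside a median of 1.54 over the 10011 protein-coding genes. It was at least 4 for 51 of the 77, beside 7.54% of those genes. The size depended on the measure. Summed over all 92 members, replicate 2 was 4.71 times the mean of the others in TPM (1588, 8222 and 1902), 2.68 times in CPM (1298, 3088 and 1007) and 2.61 times in the transcript sums of the kallisto tables (1929, 5428 and 2239 TPM). In CPM 77 of 77 standard genes were highest in replicate 2 (59.3% of the protein-coding genes) and with kallisto 76 of 77 (62.4%), Rps12 being the exception. Between replicates 1 and 3 the genes moved little as a group. The median log2 ratio of replicate 3 to replicate 1 was 0.27 for the standard genes and 0.25 for the protein-coding genes, with a range of −1.33 to 1.85 among the standard genes. Over 3 libraries the median coefficient of variation was 95.7% for standard genes and 35.0% for protein-coding genes, and without replicate 2 it was 17.8 and 21%.

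Rpl10, whose protein completes the large subunit late in its assembly, had the highest mean TPM of the family in the RSEM tables. The gene (ENSMUSG00000008682.13, mm10 chromosome X, 74270812 to 74273135, + strand) had 67.5, 248 and 107 TPM in replicates 1, 2 and 3, a mean of 140.7 ± 94.9 TPM (SD, n = 3). Next came Rps9, a small-subunit protein near the channel where mRNA enters, with 74.0, 220.3 and 68.4 TPM. Rps24, which in human cells takes part in processing of the small-subunit ribosomal RNA, had 66.2, 205 and 35.5 TPM, and its CPM of 101, 102 and 55.5 put replicates 1 and 2 level. The order depended on the measure. With kallisto Rps9 had the higher mean, 107 TPM beside 76.6 TPM for Rpl10, and in CPM Rpl10 had 45.8, 88.9 and 41.5, below Rps24 in every library. In these 3 genes replicate 2 was 2.85, 3.09 and 4.03 times the mean of the others in TPM. The next members by mean were Rps27, Rps2, Rplp1, Rps12, Rpl41, Rpl23 and Rpl13a. At the low end of the standard genes, Rpl35 had 5.78, 33.7 and 9.36 TPM, Rpl39, whose protein lines the exit tunnel, 3.43, 42.7 and 3.77 TPM, and Rps16 5.74, 48.3 and 2.22 TPM.

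Among members with a mean of at least 10 TPM, the libraries differed least for Rpl5 and most for Rplp1. Rpl5 and Rpl11 encode the proteins that bind 5S ribosomal RNA and, outside the ribosome, hold the p53 regulator Mdm2. Rpl5 had 33.8, 69.8 and 55.3 TPM, a coefficient of variation of 34.2%, and Rpl11 had 31.1, 76.9 and 29.1 TPM. For Rpl5, in CPM, the values were 30.1, 36.0 and 30.8. The smallest coefficients after Rpl5 belonged to Rpl23 (45.9, 106 and 74.9 TPM), Rpl30, the paralog Rpl7l1 and Rpl27. At the other end stood Rplp1, 1 of the 3 proteins of the stalk that recruits elongation factors, with 12.0, 237 and 10.9 TPM and 61.0, 736 and 39.0 counts. Its partner Rplp2 had 15.4, 72.9 and 16.8 TPM, and Rplp0, the base of the stalk, 18.8, 130.5 and 18.3 TPM. Rpl32 with 7.40, 135 and 6.27 TPM, Rpl23a with 7.39, 155 and 9.52 TPM, and Rpl36a also had coefficients over 137%. In Rplp1, Rpl32 and Rpl23a replicate 2 was 20.7, 19.8 and 18.3 times the mean of the others.

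Members with known roles outside the ribosome in immune cells followed the same order of libraries. Rpl13a, part of a complex that silences translation of inflammatory mRNAs in interferon-treated human monocytes, had 19.2, 168 and 28.5 TPM. Rps19, which attracts monocytes when released by dying cells, had 25.5, 112 and 37.0 TPM. Rpl22, needed for T lymphocyte development, had 8.42, 51.1 and 11.8 TPM, and Rps3, a partner of the NF-kB subunit p65, had 10.2, 46.5 and 12.0 TPM. Rps27a, which is made as a fusion with ubiquitin, had 24.6, 101 and 36.4 TPM.

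The RNA that set replicate 2 apart lay mainly in isoforms annotated as protein coding. Isoforms annotated as retaining an intron summed to 719, 1272 and 906 TPM over the members in replicates 1, 2 and 3, so that replicate 2 was 1.57 times the mean of the others. Processed transcripts, which have no annotated reading frame, summed to 221, 326 and 232 TPM, a ratio of 1.44. Isoforms marked for nonsense-mediated decay, in which a stop codon lies upstream of a splice junction, summed to 18.9, 244 and 26.4 TPM, a ratio of 10.7, and protein-coding isoforms to 629, 6381 and 738 TPM, a ratio of 9.34. Retained-intron isoforms thus held 45.3, 15.5 and 47.6% of the members' TPM and protein-coding isoforms 39.6, 77.6 and 38.8%. Over protein-coding genes of at least 1 TPM, the retained-intron share was 36.6, 35.6 and 38.3% and the protein-coding share 49.2, 52.7 and 49.4%. In the kallisto tables, replicate 2 was 1.21 times the mean of the others in the members' retained-intron isoforms and 4.46 times in their protein-coding isoforms.

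**Figure D2:**
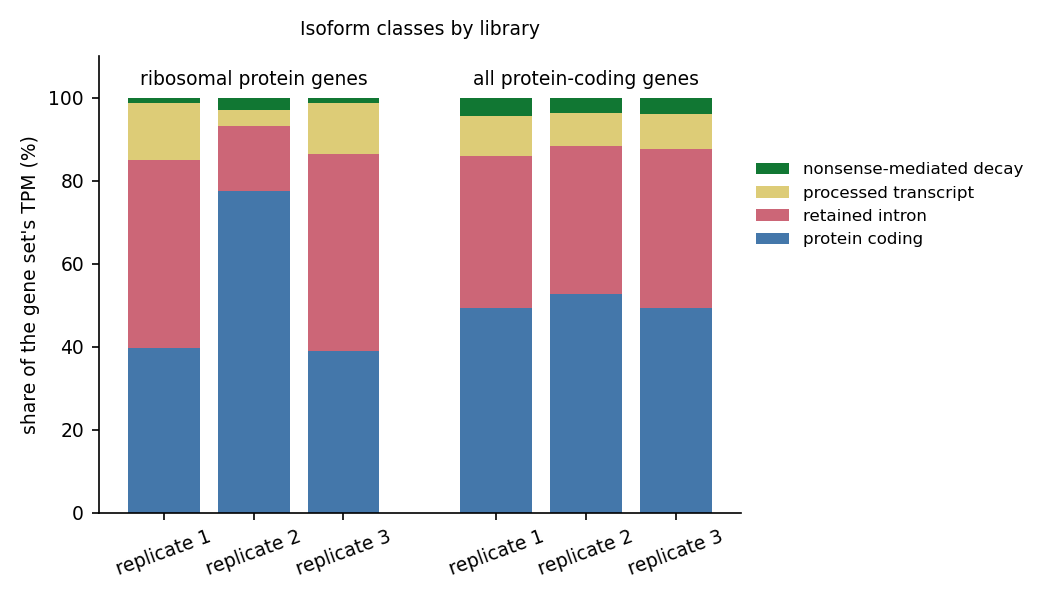
Share of TPM, in percent, held by each isoform class in replicates 1, 2 and 3, for the 92 ribosomal protein genes and for protein-coding genes of at least 1 TPM. Protein-coding isoforms held 77.6% of the ribosomal protein RNA in replicate 2, against 39.6 and 38.8% in replicates 1 and 3, and 49.2 to 52.7% over all protein-coding genes.

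The same held gene by gene. In 63 members with both classes at a mean of at least 1 TPM, the median log2 ratio of replicate 2 to the others was 0.50 in retained-intron and 3.27 in protein-coding isoforms. The ratio was larger in protein-coding isoforms for 60 of the 63 (95.2%), and smaller for Rps20, Rps16 and Rpl7l1. Over the 4642 genes that met the same condition, members included, the medians were 0.44 in retained-intron and 0.64 in protein-coding isoforms, and the ratio was larger in protein-coding isoforms for 63.5%. In 18 members with processed transcripts, the medians were 0.39 for processed transcripts and 3.49 for protein-coding isoforms, and the ratio was larger in protein-coding isoforms for 17 (94.4%). Over 2040 genes these were 0.20, 0.57 and 68.6%. In 12 members with decay-marked isoforms, the medians were 1.67 for that class and 3.10 for protein-coding isoforms, and the ratio was larger in protein-coding isoforms for 8 (66.7%), near the 64.8% of 1145 genes. Rps27 had 10.3, 16.1 and 13.0 TPM in retained-intron isoforms, against 7.32, 213 and 19.1 TPM in protein-coding isoforms. Rps18 had 20.4, 34.2 and 19.4 TPM in retained-intron isoforms, against 0.40, 112 and 3.89 TPM in protein-coding isoforms. For Rpl23, the processed transcripts had 39.9, 50.9 and 63.2 TPM and the protein-coding isoforms 5.98, 55.6 and 11.7 TPM. In each of the 3 genes the protein-coding isoforms alone were far higher in replicate 2 than in the other libraries.

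**Figure D3:**
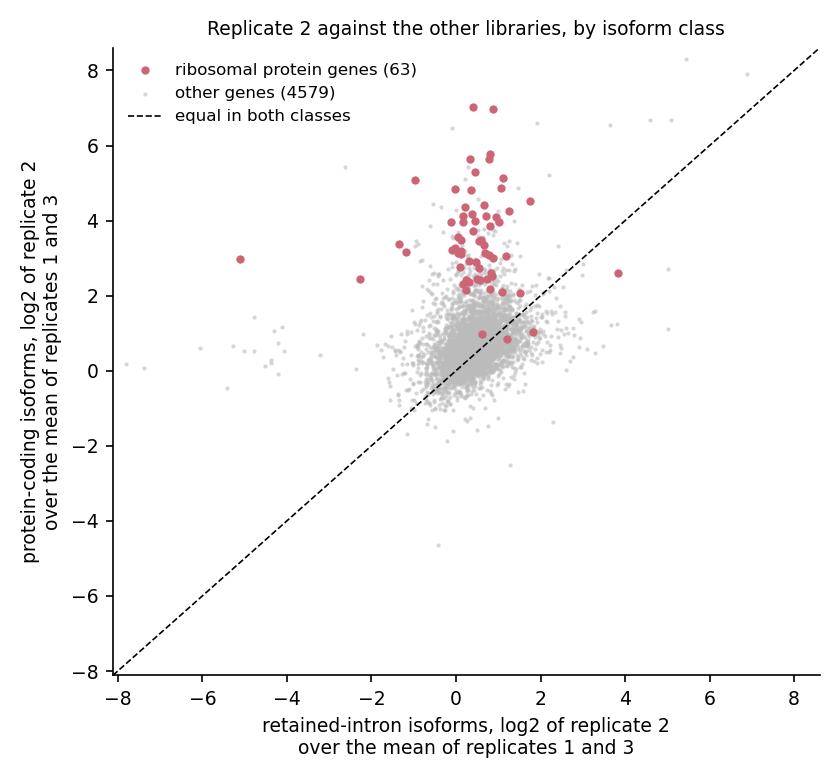
Log2 ratio of replicate 2 to the mean of replicates 1 and 3 in retained-intron isoforms (horizontal) and protein-coding isoforms (vertical), one point per gene with both classes at 1 TPM or more. The 63 ribosomal protein genes lie mostly above the dashed line of equal ratios, with medians of 0.50 across and 3.27 up, beside 0.44 and 0.64 over all 4642 genes.

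Within a library, the balance of the classes was tested by limma on log2 of retained-intron TPM over protein-coding TPM, each plus 0.1, against 0, for genes with both classes and a summed mean of at least 5 TPM. A ratio of 0 marks equal TPM and not equal splicing, because it depends on the number and length of annotated models, and the pseudocount of 0.1 shrinks the ratios of low genes. Of 65 members with a retained-intron model 64 could be tested. With Benjamini-Hochberg adjustment at 0.05 over 4311 genes, 4 members had more retained-intron RNA (24.3% of all genes tested) and 5 more protein-coding RNA (25.6%). Without replicate 2, 22 of 60 members had more retained-intron RNA (23.4% of all genes) and 6 had more protein-coding RNA (21.5%). The count of members with more retained-intron RNA therefore depended on replicate 2, in which the members' ratios were low. The median log2 ratio of the 64 was 0.44, −2.20 and 0.75 in replicates 1, 2 and 3, beside 0.04, −0.18 and 0.05 over the 4311 genes. The ratio was above 0 for 40, 6 and 42 of the 64 members (62.5, 9.38 and 65.6%, against 51.2, 44.6 and 51.3% of all genes). Replicate 2 held the lowest ratio for 60 of 64, beside 42.5% of all genes tested, and the exceptions were Rps20, Rps16, Rpl19 and Rpl7l1.

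In RSEM TPM, Rpl5 had the largest ratio of the members towards the retained-intron class. Its ratio lay between 3.36 and 3.95 in the 3 libraries. Rpl5 had 31, 63.7 and 52.1 TPM in retained-intron isoforms and 2.77, 6.11 and 3.28 TPM in protein-coding isoforms in replicates 1, 2 and 3. The log2 ratio was 3.58 (SE 0.23, limma, adjusted p = 0.0029). Of this class, the Rpl5 model that holds a whole intron of a protein-coding model had 2.53, 7.01 and 2.96 TPM. For Rpl3, a protein near the peptidyl transferase centre, retained-intron isoforms had 34.0, 74.3 and 34.3 TPM and protein-coding isoforms 0.97, 44.2 and 1.33 TPM, a ratio of 3.44 (SE 0.93, limma, adjusted p = 0.038). Rpl12 had 1.75 (SE 0.52, limma, adjusted p = 0.049) and Rps20 0.94 (SE 0.26, limma, adjusted p = 0.041). With kallisto TPM, Rpl12 had 5.98, Rpl3 2.72 and Rpl5 1.97, so the order of these genes depended on the estimate. The Rps20 ratio turned to −2.48 with expected counts in place of TPM, and at 0.66 it did not pass with kallisto TPM. Rpl10 had 53.7, 125 and 92.0 TPM in retained-intron isoforms against 13.8, 123 and 14.7 TPM in protein-coding isoforms, and its ratio of 1.54 missed the threshold (SE 0.56, limma, adjusted p = 0.079). On the other side, Rps15a had 1.80, 0.38 and 2.60 TPM in retained-intron and 25.8, 109 and 14.5 TPM in protein-coding isoforms, a ratio of −4.68 (SE 1.11, limma, adjusted p = 0.027). Rpl31 followed with −3.27 (SE 0.26, limma, adjusted p = 0.0033), and Rpl19, Rplp0 and Rpl7l1 had −2.98, −2.79 and −1.72. With kallisto TPM, Rpl31, Rpl19, Rplp0 and Rpl7l1 had −1.35, −1.64, −2.78 and −1.54. Rpl5 and Rpl31 passed whichever library was left out. Without replicate 1 and without replicate 3, the ratio no longer passed for Rpl3 (2.67 and 2.87), Rpl12 (1.71 and 1.14), Rps15a (−5.14 and −5.80) and Rplp0 (−3.57 and −3.01). Rpl19 did not pass without replicate 1 (−2.46), Rpl7l1 not without replicate 2 or 3 (−1.81 and −1.15), and Rps20 not with any library left out (1.07, 0.68 and 1.07 without replicates 1, 2 and 3). Among the members called without replicate 2 were Rpl10 at 2.30 (SE 0.34, limma, adjusted p = 0.0082) and Rpl6, Rpl37, Rps14 and Rpsa at 2.84, 2.53, 1.55 and 1.58. These named members were towards the retained-intron class, in which not every model holds a whole intron of a protein-coding model. Of all members called without replicate 2, 22 were towards that class and 6 towards protein coding.

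**Figure D4:**
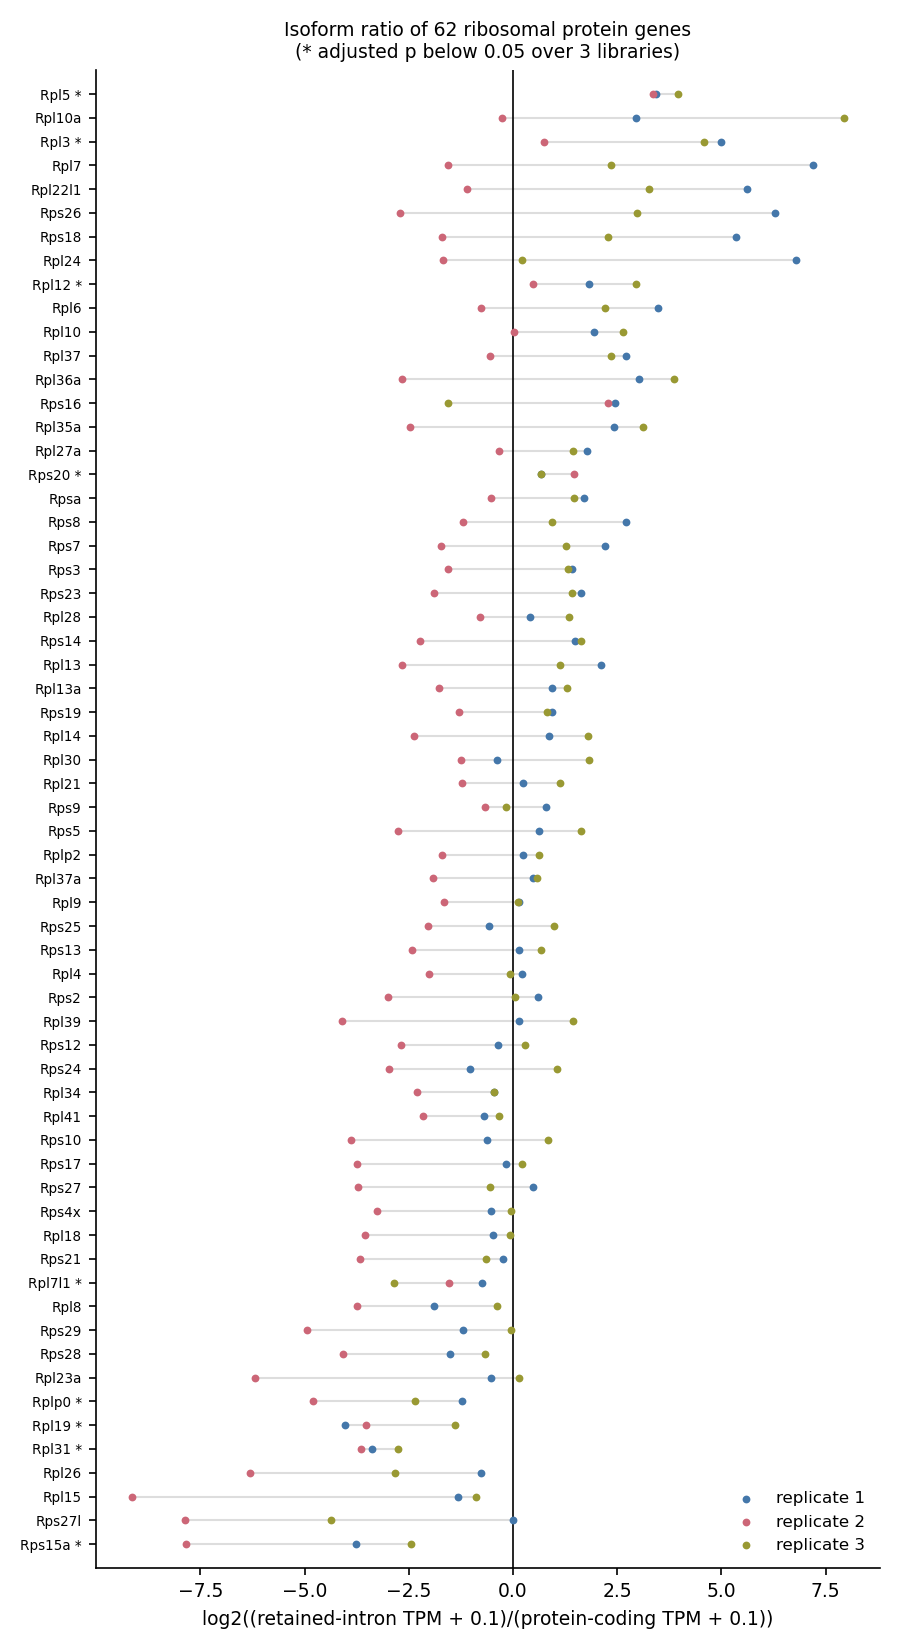
Log2 of retained-intron TPM plus 0.1 over protein-coding TPM plus 0.1 for 62 of the 64 ribosomal protein genes tested, one point per library and ordered by the mean, with a line at 0 where the classes are equal. Replicate 2 lies lowest for 58 of the 62, and the asterisks mark the 4 genes above and the 5 below 0 with an adjusted p below 0.05 in limma.

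Isoforms marked for nonsense-mediated decay were called lower than protein-coding isoforms in 11 of 19 members tested in the same way. This was a smaller share than the 72.4% of all 1677 genes tested. The mean log2 ratio was below 0 in 18 of the 19, called or not. More decay-marked RNA was called for 0 members, beside 3.34% of all genes. In limma, 11 of the 19 had an unadjusted p under 0.05, and kallisto TPM in its place gave 0 members towards decay-marked RNA and 10 of 17 towards protein coding. Without replicate 2, the members called were 0 (2.32% of 1464 genes) and 8 of 11 (60.0%). In 4 of the 11, Rpl9, Rpl6, Rps18 and Rpl14, the decay-marked isoforms were listed at 0 TPM in all 3 libraries, so that the size of their ratios comes from the pseudocount and none is given. Of those with decay-marked RNA, Rps9 had 0.75, 3.66 and 1.97 TPM in these isoforms and 26.8, 133 and 35.1 TPM in protein-coding isoforms, a log2 ratio of −4.74 (SE 0.40, limma, adjusted p = 0.0010). Rpl12, at 5.87, 23.0 and 5.67 TPM in decay-marked and 2.93, 20.2 and 1.71 TPM in protein-coding isoforms, was the 1 member with a ratio above 0 in all 3 libraries. Its ratio of 0.95 did not pass (SE 0.44, limma, adjusted p = 0.11). The decay-marked isoforms of Rpl13a had 0.80, 54.6 and 2.27 TPM in replicates 1, 2 and 3 and those of Rps19 1.29, 30.2 and 2.45 TPM, highest in replicate 2 for both genes. Without replicate 1 and without replicate 3, the test no longer passed for, among others, Rps19 (−1.32 and −1.55) and Rpl13a (−0.98 and −1.39).

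The introns held by the retained-intron models were described from the annotation. No other introns were measured beside them, so their length and end bases are not called particular to the members. Of 177 such models, 89 hold the whole of an intron of a protein-coding model, 97 distinct introns in all, with a median length of 262 bases. All 97 begin with GT and end with AG, and 19 hold an annotated snoRNA gene. The 30 bases around the exon end are shown for 1 model each of Rpl10, Rpl3, Rps9 and Rps24, the highest by mean TPM in the RSEM tables among the gene's models that hold a whole intron, read from GENCODE M21 transcripts in the direction of transcription, with the GT that opens the retained intron in capitals. The introns lie in mm10 at chrX:74271719-74271799 (+), chr15:80081032-80081614 (−), chr7:3704065-3704326 (+) and chr14:24493494-24495774 (+).
Rpl10: ggtgtccctgGTaagtagtgacaaacttcg
Rpl3: ataagaactgGTaagaggctcttgggttcc
Rps9: gagttcgtagGTgagtgttctgattgttga
Rps24: tggcaaaaagGTatggttcatggctgctgc
The Rpl10 model, which keeps an intron of 81 bases, had 18.1, 44.8 and 38.3 TPM in replicates 1, 2 and 3. The Rpl3 model had 14.4, 38.6 and 19.7 TPM, the Rps9 model 13.4, 23.5 and 16.3 TPM and the Rps24 model 10.2, 12.0 and 10.8 TPM. Another retained-intron model of Rps9, which holds no whole intron of a protein-coding model, was higher with 26.1, 52.4 and 11.1 TPM. In the kallisto tables their means were 22.5, 18.7, 19.8 and 3.01 TPM, so that the Rps24 value depended on the estimate. A second Rps24 model with the same intron averaged 7.63 TPM, and 11.1 TPM with kallisto. The retained-intron TPM was spread over many models, of which the 10 highest held 21.4%.

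A pyrimidine run like that of TOP mRNAs was looked for around the annotated start sites. Of the members, 66 had a RefSeq promoter entry (GRCm38.p6), with 78 entries in all. Windows of 15 bases before and 15 from the start were searched on the gene's strand for a C followed by pyrimidines, at least 6 in a row. Such a run was found, anywhere in the window, in 38 of 78 member entries (48.7%) and in 22.5% of 32851 entries of all genes. A match is therefore not shown to open the mRNA, and in Rpl31 it lies wholly before the annotated start. The windows of Rps27, Rpl13a, Rps9, Rpl31 and Rpl10 are shown to compare members with and without such a run, which is in capitals.
Rps27: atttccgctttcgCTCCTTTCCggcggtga
Rpl13a: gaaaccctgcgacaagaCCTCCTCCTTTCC
Rps9: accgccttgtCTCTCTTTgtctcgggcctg
Rpl31: CTTCCTCCTCgcctccccgtgacccggaag
Rpl10: gttgttacagtggaagataggccgcctata
They lie at chr3:90213634-90213663 (−), chr7:45128731-45128760 (−), chr7:3704026-3704055 (+), chr1:39367836-39367865 (+) and chrX:74270801-74270830 (+). Rpl10, the member with the highest mean TPM in the RSEM tables, had no such run in this window, and neither did Rpl5, the member that varied least. The absence of these letters says nothing about starts elsewhere.

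Variant paralogs, some of which replace a standard protein in particular tissues, had less RNA on average than the genes they resemble. Rpl22l1 led with 5.57, 33.7 and 7.48 TPM in replicates 1, 2 and 3, and its parent Rpl22 had 8.42, 51.1 and 11.8 TPM. Rpl36al had 7.29, 27.9 and 3.19 TPM and Rpl7l1 5.66, 15.5 and 10.5 TPM. Rpl36al kept 318 coding bases in register with Rpl36a (4.0, 54.0 and 4.28 TPM), of which 279 were identical, and in replicate 1 it was above that gene. Rps27l had 0.23, 23.2 and 1.95 TPM, a coefficient of variation of 151%, against 3.56, 20.2 and 12.3 TPM by kallisto. Its coding sequence shares 192 of 252 bases with Rps27 (17.6, 229 and 32.1 TPM). Bases 4 to 63 of both coding sequences (GENCODE M21) are shown, with the bases that differ in capitals. This stretch was chosen because it holds the most differences, 19 of 60, so the rest of the sequences is more alike.
Rps27l: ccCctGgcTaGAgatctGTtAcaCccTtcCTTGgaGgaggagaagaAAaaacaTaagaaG
Rps27: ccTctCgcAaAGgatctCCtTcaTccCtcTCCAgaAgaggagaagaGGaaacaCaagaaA
Rpl3l, the form of skeletal muscle and heart, and Rpl10l, the form of testis, stayed at or under 3 counts in each library, as did the pseudogene symbols Rpl36a-ps1 and Rpl36-ps4. Rpl39l, another testis form, had 0.56 TPM in replicate 2 and 0 in the others, and Rpl9-ps1 had 1.13, 0 and 0.64 TPM.

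Other copies had coding sequences equal or nearly equal to those of their parents. Bases outside the coding sequences were not compared. The coding sequences of Rps12 and Rps12-ps3 were identical over 396 bases, those of Rpl10 and Rpl10-ps3 over 642 and those of Rps27 and Rps27rt over 252, while Rpl9 and Rpl9-ps6 shared 575 of 576. The tables divided the reads differently. Rps12 had 38.1, 170.1 and 48.9 TPM and its copy 0, 24.3 and 0 TPM. With kallisto Rps12 had 23.6, 21.7 and 24.7 TPM and its copy 5.67, 97.7 and 8.86 TPM. Their sum was 38.1, 194 and 48.9 TPM, and 29.3, 119 and 33.5 TPM with kallisto, so that replicate 2 was highest for the pair in either table. The sum of Rpl10 and its copy was 68.6, 269 and 109 TPM, and 62.9, 151 and 75.0 TPM with kallisto. The values of each gene of such a pair are therefore uncertain. The other 294 ribosomal protein pseudogene symbols, which are no members, held 949, 1638 and 821 counts, equal to 5.80, 3.08 and 4.78% of the members' counts.

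For the snoRNAs inside the members, the library with the highest value depended on the measure. In 30 members 59 snoRNA genes are annotated, 58 of them on the host's strand, and Rpl4 holds 5, the most. Their counts, not corrected for length or depth, summed to 11778, 1635 and 1979 in replicates 1, 2 and 3. Most came from Rps3, whose introns hold Snord15b with 9690, 1028 and 1317 counts and Snord15a with 1290, 326 and 396 counts, beside 10.2, 46.5 and 12.0 TPM for Rps3 itself. Gm26448 in Rpsa had 590, 200 and 217 counts and Snora70 in Rpl10 49, 8 and 5. Of the 59, 12 passed 3 counts in a library, and all 12 had the highest count in replicate 1. In TPM, 6 of the 12 were highest in replicate 1 and 6 in replicate 2, and in kallisto TPM 11 in replicate 1 and 1 in replicate 2. Snord15b had 51639, 29236 and 28573 TPM, while Snord15a had 6028, 7993 and 7423 TPM and Gm26448 683, 896 and 763 TPM. Snora7a in Rpl32 had 165, 591 and 279 TPM and Snora21 in Rpl23 184, 223 and 102 TPM, highest in replicate 2 like their hosts. These TPM divide by effective lengths of few bases that differ between libraries, such as 14.7, 3.07 and 3.74 bases for Snord15a. Another 36 had an effective length of 0 in every library, in libraries whose fragments span 250 to 400 bases. By kallisto, 35 passed 3 counts in every library. Reads that belong to an unspliced host and to its snoRNA cannot be told apart here.

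The medians of other lists of translation genes were also highest in replicate 2, by smaller ratios than those of the members. Fau and Rack1, whose symbols fall outside the rule, encode small-subunit proteins. Fau had 19.1, 90.0 and 23.9 TPM in replicates 1, 2 and 3, and Rack1 had 34.2, 89.0 and 35.2 TPM, log2 ratios of replicate 2 to the others of 2.06 for Fau and 1.36 for Rack1. Of 12 elongation and initiation factors or similar proteins with TOP mRNAs, 11 were highest in replicate 2, with medians of 18.7, 64.5 and 28.8 TPM. The highest of them, Eef1a1, which delivers tRNA to the ribosome, had 262, 736 and 273 TPM. Log2 ratios of replicate 2 to the others ran from 0.03 for Pabpc1 to 2.12 for Eef1b2 among these 12 genes. The median log2 ratio of replicate 2 to the others was 2.48 for small-subunit, 2.11 for large-subunit and 1.29 for these factor genes, against 0.62 over protein-coding genes. It was 1.06 for 78 mitochondrial ribosomal proteins, with medians of 1.95, 5.18 and 2.70 TPM, 0.85 for 20 ribosome assembly factors and 0.60 for 12 genes of the RNA polymerase I machinery. For 7 regulators of TOP mRNAs it was 0.51. Among those, Larp1, which holds TOP mRNAs back from translation, had 53.2, 49.0 and 45.3 TPM and did not follow the order of its targets. These lists were compared by their medians alone and no difference between them was tested.

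**Figure D5:**
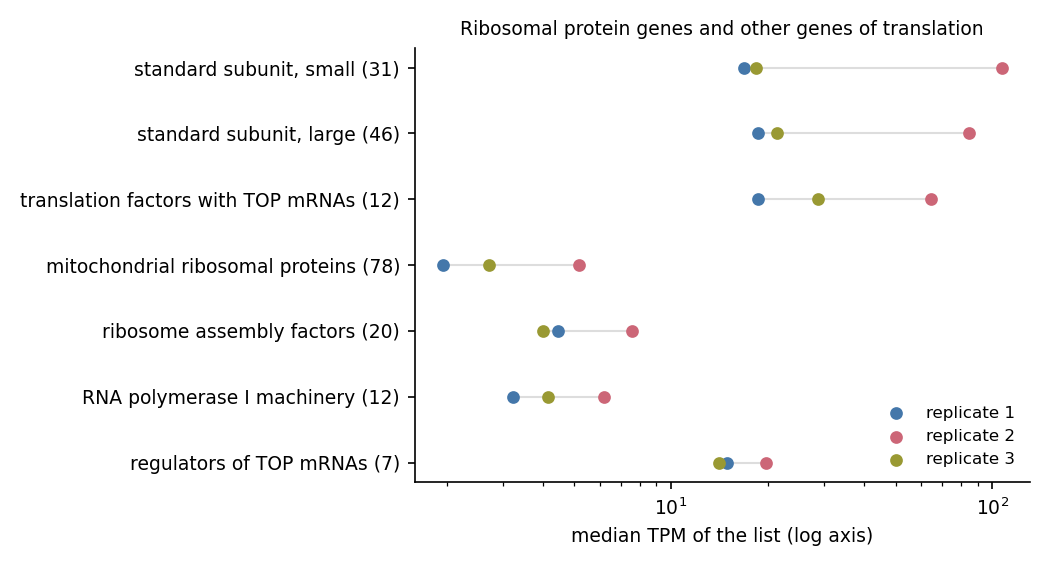
Median TPM on a log axis of 7 gene lists in replicates 1, 2 and 3, with the number of genes of each list in parentheses. Small-subunit genes reached 107 TPM and large-subunit genes 84.8 TPM in replicate 2, against 16.9 to 21.4 TPM in the other libraries, while the regulators of TOP mRNAs lay between 14.1 and 19.8 TPM.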

How the data were processed

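Chromatin-fraction RNA was sequenced in 3 libraries of 1 group. The authors deposited expected counts and TPM per gene and isoform, in RSEM's layout and, per the file notes, from reads aligned to mm10 transcripts (GENCODE M21). They also deposited estimated counts and TPM per transcript in kallisto's layout. The aligner, its version and the strand setting are not given in the sources used, so overlapping genes and copies may share reads. Rows without a gene were dropped.

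From these, kallisto TPM was summed per gene, CPM was computed from expected counts, and isoforms were summed by annotated class. Isoform ratios were tested with limma 3.58.1 in R 4.3.3 (intercept only, two-sided, all genes of a summed mean of at least 5 TPM, Benjamini-Hochberg at 0.05). Summaries used pandas 2.3.3 and numpy 2.4.6 under Python 3.11.15. In simulated retained-intron ratios with each gene's SD over the 3 libraries, 200 of 4311 genes were given a log2 ratio of 1, 2 or 4. Of those 200, 0, 61.0 and 89.5% were called. Far fewer genes were changed there than were called in the libraries, so these shares do not give the ratio needed for a call in them. Other estimates, pseudocounts, minimums and each library left out were tried.

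The members and lists were chosen with earlier results of these data known. Named members were the highest, lowest, undetected and most and least variable genes, paralogs with their parents, those called in the isoform tests, those on which the tables differed most, the main snoRNA hosts and those of the role lists. Rps18 and the members named from the test without replicate 2 were chosen after their values were seen. A few items are not reported here by name.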

Additional observations from a re-analysis of the deposited data

How the results depend on the processing

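Levels of the members depended on replicate 2 and on the unit. The mean over libraries of the members' median was 39.0 TPM (SD 39.7), 118 TPM when rescaled to protein-coding genes and 15.3 in CPM, and 16.1 to 50.9 TPM with 1 library left out, lowest without replicate 2. The members' share of protein-coding TPM was 1.19% (SD 1.00), 0.808% with kallisto and 0.285% of protein-coding counts in CPM, and 1.49, 0.613 and 1.47% without replicates 1, 2 and 3. The medians of small-subunit and large-subunit members were 47.5 and 41.6 TPM, 17.7 and 20.0 TPM without replicate 2, and 19.9 and 19.0 in CPM. Protein-coding isoforms held a mean of 52.0% of the members' TPM, and 39.2% without replicate 2. As the spread between libraries comes largely from replicate 2, it is no measure of how stable these values are. Members with more retained-intron RNA numbered 4, but 7 with kallisto TPM, 1 with expected counts, 2 with a pseudocount of 0.01, 1 with a minimum of 1 TPM, 1 with no minimum, and 1, 22 and 2 without replicates 1, 2 and 3. Those with more protein-coding RNA numbered 5, but 14 with kallisto, 12 with posterior mean TPM, 9 with expected counts, 2 with no minimum and 3, 6 and 2 without replicates 1, 2 and 3. Over all genes the 1049 with more retained-intron RNA became 1810 with kallisto and 676, 901 and 351 without replicates 1, 2 and 3, and the 1104 with more protein-coding RNA became 3404 with expected counts and 849, 829 and 473 without replicates 1, 2 and 3. In the decay-marked test the members numbered 0 throughout towards that class and 8 to 16 towards protein coding. Rps20 turned to −2.48 with expected counts, and no other called member changed direction under these alternatives. The cause of these changes was not tested. No paired analysis was possible because the libraries form a single group. Of the lowest members, 4 stayed at or under 3 counts in each library, and the part of depth in this was not tested.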
